A study of Gallus gallus with 2 samples.

Results

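AP-1 is a family of dimeric transcription factors built from JUN, FOS and BATF proteins, and the small MAF proteins MAFF, MAFG and MAFK are relatives that share the same basic leucine zipper fold. The genes described here were chosen by name, as every probe set that the platform annotation assigned to JUN, JUND, FOS, FOSL2, BATF3, MAFF, MAFG, MAFK, BACH1 or BACH2. The names themselves were chosen with earlier results of these data known. Of these 10 genes, 8 had a probe set, with 12 probe sets in all among 38439 non-control probe sets, and the array named 13051 genes. No probe set carried the name JUND or BACH2, so neither gene was measured.

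The cells were DT40, a chicken B cell line from the bursa of Fabricius that is widely used for gene targeting. One group was a wild-type clone and the other was a clone without H2A.Z-1 and H2A.Z-2, the genes of the histone variant H2A.Z, with 1 array each. In the double knockout clone H2A.Z-2 was lost for good, whereas a transgene supplied H2A.Z-1 until tetracycline shut it off, for 3 days before the RNA was made. The labels give tetracycline a final concentration of 2 mg/ml and name the drug in the title of the knockout array only. Whether wild-type cells received it cannot be read from them, so drug and genotype cannot be told apart. Each group is 1 clone, and the array of the knockout clone has no partner without tetracycline.

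JUN and FOS proteins pair through their leucine zippers and bind a short palindromic site in the control regions of many genes that answer to growth factors, antigen receptors and stress. FOS, JUN and MAFF belong to the genes that cells can switch on within minutes without making new protein. Small MAF proteins carry no activation domain: paired with each other they repress, paired with NFE2L2 (NRF2) they activate antioxidant genes, and paired with BACH1 or BACH2 they repress heme and antioxidant genes. BACH2 is best known from B cells, where it holds back the change into plasma cells.

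Every value is a MAS5 signal, the linear intensity that the array software gives a probe set, and every log2 ratio subtracts the wild-type array from the knockout array. Signals under a floor of 58.3, the median of all non-control signals, were set to that floor, so a fold against a value under it is a lower bound written "at least". A gene was called measured if its brightest probe set lay above the floor on at least 1 array. With 1 array per group there are no replicates, no test was made, and precision is limited by the number of arrays. As a guide to probe error alone, ratios of 2 probe sets of the same gene had an SD of 0.38 on the log2 scale over 3507 genes. That SD was 0.50 for genes with a mean signal of 1 to 4 times the floor, 0.40 at 4 to 16 times and 0.29 above that. In RNA from a whole culture, fewer cells that express a gene and less RNA per cell cannot be told apart.

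Both targeted genes were far dimmer in the knockout. H2AFZ, the array's name for H2A.Z-1, read 27331 against 387, and H2AZ2 read 18244 against 17.6. Of the B cell markers examined, 9 were on the array and all 9 were above the floor on both arrays, among them CD79B, a chain of the B cell receptor, at 8827 and 7718. Of these 9 markers 8 were lower on the knockout array, whereas 50.1% of all genes above the floor on both arrays were higher there. Their median log2 ratio was -0.73, and 3 of them, CD74, IKZF1 and CD72, were at least 2-fold lower, as were 6.54% of all such genes. The summed signal of the 9 markers was 53091 in wild type and 30774 in the knockout. The 1 myeloid marker above the floor, CSF1R, stood at 65.7 and 106, and the erythroid markers HBAD and TAL1 passed the floor on the knockout array only, with a summed signal of 68.0 and 226. Among T cell markers 4 of 7 were measured, with summed signals of 12651 and 4322 that came mostly from CD3D, and among fibroblast markers 4 of 6, with 613 and 535. The ratio of 3′ to 5′ signal of the actin control probe sets was 1.13 in wild type and 1.95 in the knockout, and that of GAPDH was 1.02 and 1.05. The part of these differences in the ratios below was not tested.

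Most of the measured AP-1 and small MAF genes had higher signals without H2A.Z. All 5 genes above the floor on both arrays, JUN, MAFF, MAFG, MAFK and BACH1, were higher on the knockout array, and 3 of them, MAFF, BACH1 and JUN, were at least 2-fold higher. None was lower. Among all 8042 genes above the floor on both arrays, 3.21% passed 2-fold upwards, 6.54% passed it downwards, and 50.1% were higher by any amount. Because the members were chosen with earlier results of these data known, they are no independent sample to set beside these shares. FOS joins the 5 genes as a measured gene through the knockout array alone, which fixes its direction. Over these 6 genes the median log2 ratio was 1.34, beside 0.02 over all 9486 measured genes, of which 3.87% passed 2-fold upwards and 6.62% downwards. FOSL2 and BATF3 were under the floor on both arrays. By probe set, 6 of the 12 were above the floor on both arrays, 3 on the knockout array only and 3 on neither.

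**Figure D1:**
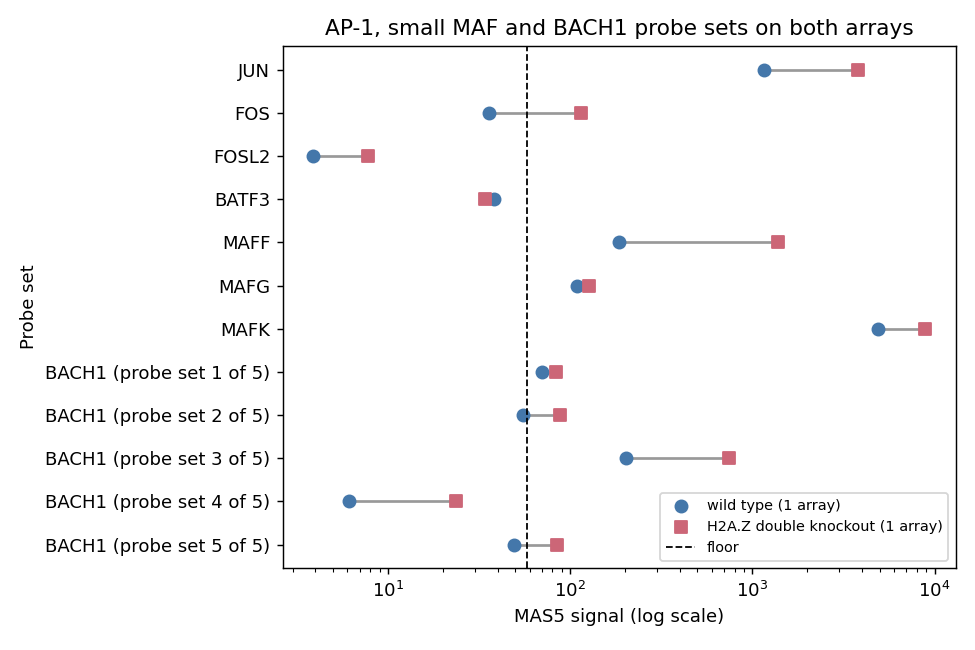
MAS5 signal (log axis) of the 12 probe sets on the wild-type array (circles) and the knockout array (squares), with the floor of 58.3 as a dashed line; there is 1 array per group, so no error bars are drawn. The widest gap above the floor is that of MAFF, from 186 to 1379. MAFG, close above the floor, and BATF3, under it, have nearly the same signal on both arrays.

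JUN, the main DNA-binding partner in AP-1 and the target of the JNK kinases, lies on chromosome 8 of the chicken reference. Its single probe set read 1163 in wild-type cells and 3797 without H2A.Z. Both values were well above the floor, and they stand 3.26-fold apart. The log2 ratio of 1.71 was larger than the probe SD of 0.29 at this brightness, and 0.548% of all measured genes had a higher ratio.

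FOS, the partner of JUN whose transcript is usually short-lived, lies on chromosome 5. Its probe set read 36.0 on the wild-type array, under the floor, and 115 on the knockout array, above it. The fold is therefore a bound of at least 1.97-fold higher, or at least 0.98 on the log2 scale. The deposited signals themselves stand in a ratio of 3.18, which rests on a wild-type value under the floor. With the floor at the 25th percentile of all signals, both FOS values lay above it and the log2 ratio was 1.67.

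FOSL2, a FOS relative with longer-lived expression, read 3.90 in wild-type cells and 7.74 without H2A.Z, both far under the floor. BATF3, a small AP-1 protein without an activation domain that is best known from dendritic cells, read 38.4 and 34.3. With both values under the floor, no order is read from them and no fold is given for either gene. Both genes lie on chromosome 3.

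The small MAF genes differed among themselves. MAFF, on chromosome 1, read 186 in wild-type cells and 1379 without H2A.Z. That is 7.41-fold higher, a log2 ratio of 2.89, and it stood at rank 5 from the highest among 9486 measured genes. MAFF was the 1 gene of the 6 that was at least 4-fold higher, as were 0.285% of measured genes.

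MAFK, on chromosome 14, read 4914 in wild-type cells, 84.4 times the floor, and 8850 without H2A.Z. Its ratio of 1.80 (log2 0.85) was under 2-fold but larger than the probe SD of 0.29 for bright genes. MAFG, on chromosome 18, had signals of 109 and 127. That ratio of 1.16 (log2 0.22) was smaller than the probe SD of 0.50 for genes this close to the floor. The difference of MAFG was thus within probe error. Each of these genes had 1 probe set, so their ratios have no second probe set to compare with.

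BACH1, a repressor that pairs with small MAF proteins and lets go of DNA when it binds heme, lies on chromosome 1 and had 5 probe sets. Its brightest probe set read 202 in wild-type cells and 740 without H2A.Z, 3.67-fold higher (log2 ratio 1.88). The other probe sets were dimmer. One, the second above the floor on both arrays, went from 70.1 to 83.4, a log2 ratio of 0.25. Another, at 55.3 and 88.5, crossed the floor with a bound of 0.60, and a further one, at 49.4 and 84.3, crossed it with a bound of 0.53. The last read 6.15 and 23.6, under the floor on both arrays. Only the brightest showed a direction beyond probe error. The ratio of 0.25 was under the probe SD of 0.50 for signals this close to the floor, and its probe set is shared between transcripts. The other probe sets were under the floor on 1 array or both, and the probe SD covers only probe sets above it on both. Their bounds of 0.60 and 0.53 were therefore not set against that SD. The size rested on the brightest: the median over the 4 measured probe sets was 0.57, or under 1.5-fold. Where these probe sets lie in the transcript was not examined here.

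**Figure D2:**
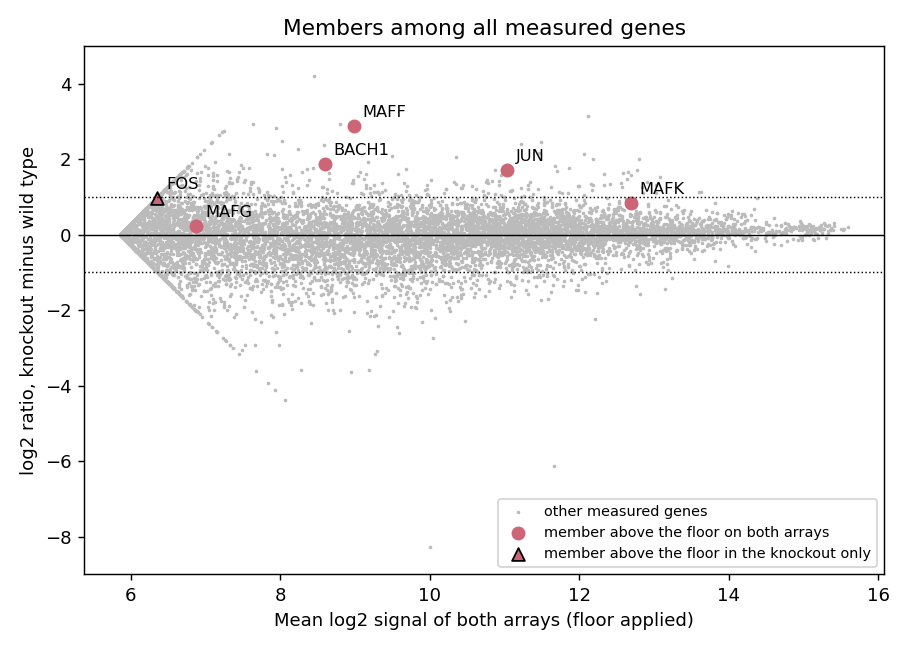
Log2 ratio (knockout minus wild type) against the mean log2 signal of both arrays for all 9486 measured genes (grey) and the 6 measured AP-1, small MAF and BACH1 genes (red), with dotted lines at 2-fold. MAFF, BACH1 and JUN lie above the upper line, MAFK and the FOS bound (triangle) just under it, and MAFG inside the grey cloud; the 2 lowest grey points are the targeted H2A.Z genes.

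The call at 2-fold held in every setting for JUN and MAFF. JUN was at least 2-fold higher in all 8 alternative settings, with log2 ratios from 1.66 to 1.86, and MAFF likewise in all 8, from 2.17 to 3.04. BACH1 was at least 2-fold higher in 7 of 8. FOS was measured in 7 alternatives and passed 2-fold in 2 of them, and MAFK passed in 1, median centring, where its log2 ratio was 1.001. Under median centring, which moved the median of all measured genes from 0.02 to 0.15, 5 of the 6 genes passed 2-fold.

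**Figure D3:**
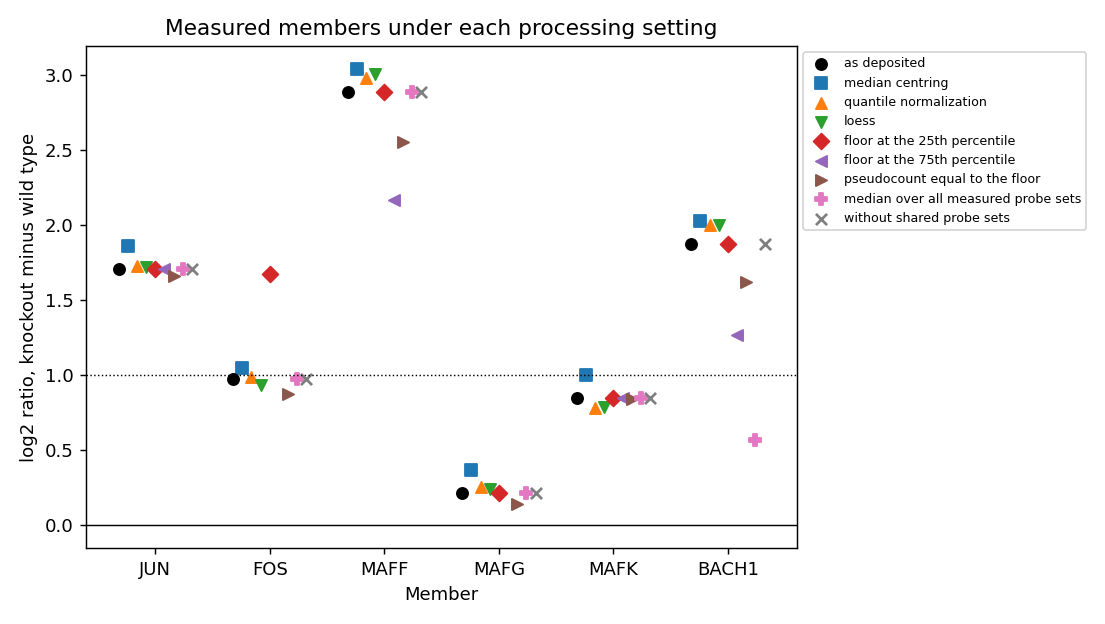
Log2 ratio (knockout minus wild type) of the 6 measured genes as deposited (black circles) and under 8 alternative settings, with a dotted line at 2-fold. JUN and MAFF stay above that line in every setting, BACH1 drops to 0.57 when all its measured probe sets are used, and MAFG stays between 0.15 and 0.37.

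Other proteins of the AP-1, ATF and MAF group did not share one direction. Of 18 listed genes 9 were on the array, and 4 were above the floor on both arrays, 1 of them higher and 3 lower. Among all genes above the floor on both arrays, 50.1% were higher. BATF, which pairs with JUN and with IRF4 or IRF8 in lymphocytes, read 260 against 75.2, 3.46-fold lower without H2A.Z. NFE2L1, a partner of small MAF proteins that drives proteasome genes, had 3857 and 12751, 3.31-fold higher, although its 4 probe sets ranged from 0.24 to 1.73 on the log2 scale. NFE2L2, the partner in the antioxidant response, had 1802 and 1602, a log2 ratio of -0.17, with another probe set at 0.08. The third lower gene, ATF2, had 1310 and 1042, a log2 ratio of -0.33, and its 4 probe sets were all lower, from -0.57 to -0.10. ATF3, a stress-induced partner of JUN, passed the floor on the knockout array only, at 381 against 15.5 in wild type. ATF7, an ATF2 relative, did so too, with a bound of 0.45. JDP2, MAF and MAFA were under the floor on both arrays.

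Upstream, the list of MAP kinases and their activators held 21 genes above the floor on both arrays, of which 17 were higher and 4 lower, with 3 at least 2-fold higher and none at least 2-fold lower. Their median log2 ratio was 0.21, beside 0.002 over all genes above the floor on both arrays. Of all such genes, 50.1% were higher, 3.21% passed 2-fold upwards and 6.54% passed it downwards. The list was chosen with earlier results known, so it is no independent sample. MAP2K3, BRAF, MAP3K2, MAP3K4, MAP3K5, RASGRP1, MAP2K2 and NRAS, from 0.07 to 0.24, were each under the probe SD at their brightness. Among the lower genes, so were MAP2K4 at -0.13 and MAP3K1 at -0.14. RASGRP3, which couples the B cell receptor to RAS, went from 1594 to 4221, and both of its probe sets were above 2-fold (log2 ratios 1.41 and 1.45). MAPK11, a p38 kinase, had a log2 ratio of 1.73 with another probe set at 0.37, and MAP3K8, a kinase that activates the ERK pathway, had 1.09 with another at 0.70. MAPK14, another p38 kinase, went from 4483 to 2590 (log2 ratio -0.79), and its 4 probe sets were all lower, from -1.54 to -0.79. MAP2K6, an activator of p38 kinases, went from 210 to 39.0, at least 3.61-fold lower, with its second probe set at -1.51. The JNK genes were split, with MAPK9 at 0.77 and MAPK8 at -0.55 (its 3 probe sets ranged from -0.55 to 0.02). MAPK10, another JNK gene, passed the floor on the wild-type array only, at 62.4 against 47.9, with a bound of -0.10.

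Factors that bind the FOS and JUN promoters went both ways. All 11 genes found on the array were above the floor on both arrays, 8 higher and 3 lower, with none at least 2-fold higher, 1 at least 2-fold lower and a median of 0.42. SRF, which binds the serum response element of FOS, had signals of 714 and 1064 (log2 ratio 0.58). Its partners of the ETS family differed in direction: ELK3 was at 0.83, and ELK4 at -0.65 with another probe set at 0.02. STAT3 had a log2 ratio of 0.61, with 4 probe sets from 0.02 to 0.72. MEF2C, which binds the JUN promoter, was 2.39-fold lower, from 405 to 170. SRF, MAPK14, MAPK8, MAPK9, MAPK10, NFE2L2 and ATF2 were named after their values were seen.

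Of the genes for turnover and modification of JUN and FOS proteins, 11 were above the floor on both arrays. Of these, 2 were higher and 9 lower, at a median of -0.18, whereas 50.1% of all such genes were higher. This list too was chosen with earlier results known. CSNK2A1, COPS5, CUL4A, FBXW7, USP28, RPS6KA1 and RFWD2, from -0.07 to -0.38, were each smaller than the probe SD at their brightness. Among the higher genes, so was NEDD4 at 0.28. Over the 14 measured genes the median was -0.16, and -0.018 under median centring. TRIB2, a pseudokinase that brings substrates to the COP1 ubiquitin ligase, was 2.78-fold lower, from 4170 to 1500, with 3 probe sets all lower. DDB1, an adaptor of CUL4 ligases, was 2.00-fold higher, but its 4 probe sets ranged from 0.06 to 1.13. ITCH, a ubiquitin ligase for JUN, had a log2 ratio of -0.52 with another probe set at 0.14. RPS6KA2, a kinase of the ERK pathway, passed the floor in the knockout only, with a bound of 0.84.

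Known AP-1 targets above the floor were mostly higher, several of them within probe error. Of 27 on the array, 12 were above the floor on both arrays, and of these 11 were higher and 1 was lower, with 4 at least 2-fold higher and a median of 0.49. Among all genes above the floor on both arrays, 50.1% were higher and 3.21% at least 2-fold higher. The list was chosen with earlier results of these data known, so it is no independent sample to set beside these shares. PLAU, ITGAV, MYC, TGFB1 and HBEGF, from 0.04 to 0.49, were each under the probe SD at their brightness. The 4 probe sets of CD44 ranged from -0.28 to 1.16. MMP9, a matrix-degrading protease, went from 348 to 1486, 4.27-fold higher. DUSP4 and DUSP1, phosphatases that switch off MAP kinases, had log2 ratios of 2.06 and 1.30. The chicken chemokine gene IL8L1, close to the floor, went from 59.2 to 122. CCND1, the cyclin that drives entry into the cell cycle, was the 1 lower gene, at 3164 and 2319 (log2 ratio -0.45). A further 4 passed the floor on the knockout array only, and 11 were under it on both, VIM and SPP1 among them.

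The targets of NRF2, small MAF proteins and BACH1 went both ways. Of 17 above the floor on both arrays, 13 were higher and 4 lower, with 1 at least 2-fold in each direction and a median of 0.12. HMOX1, heme oxygenase and the classical target of BACH1 repression, had signals of 2474 and 2998, a log2 ratio of 0.28. NQO1, an antioxidant reductase, had 5309 and 8798 (0.73), with its second probe set at 0.97. SLC7A11, the cystine transporter, had 71.7 and 271 (1.92), with the lowest of its 3 probe sets at 0.09. ABCC1, an export pump for glutathione conjugates, was at 0.76, but its 4 probe sets ranged down to -0.98. BLVRA, which in mammals turns the biliverdin made by heme oxygenases into bilirubin, was 3.04-fold lower, from 2398 to 788, and all 3 of its probe sets were lower. HMOX1 was named after its value was seen.

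Among partners and targets of BACH2 and BATF in B cells, 13 genes were above the floor on both arrays. They were 7 higher and 6 lower, with a median of 0.09, and 50.1% of all such genes were higher. Of the 13, 2 were at least 2-fold lower and none at least 2-fold higher, beside 6.54% and 3.21% of all such genes. The lower ones were IRF8, a partner of BATF, from 10229 to 2182, and SPI1, an ETS factor of B and myeloid cells, from 2748 to 1174. CD83, an activation marker, passed the floor on the knockout array only, at 320 against 31.0, at least 5.49-fold higher, and CD86, a costimulatory ligand, had a log2 ratio of 0.80 on dim signals of 70.5 and 123. IRF4 was at 0.09. PRDM1, the plasma cell factor that BACH2 represses, was under the floor on both arrays. Across the array, 367 measured genes passed 2-fold upwards and 628 downwards. Median centring, which moved the median ratio of all measured genes from 0.02 to 0.15, gave 523 and 458.

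**Figure D4:**
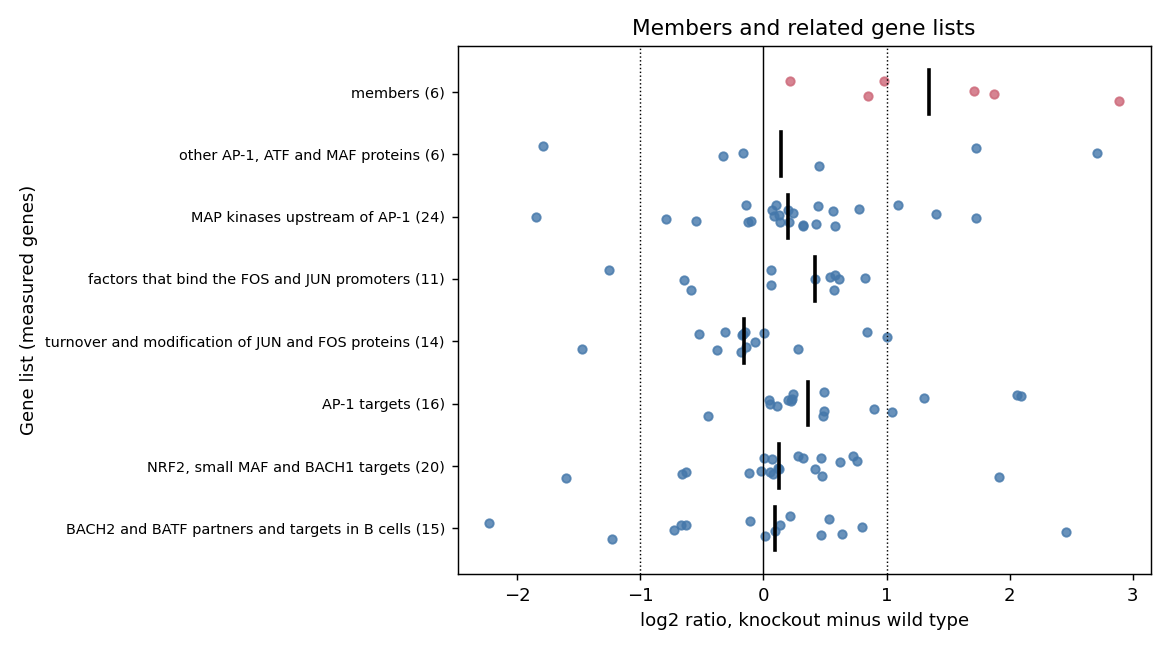
Log2 ratio (knockout minus wild type) of each measured gene of the AP-1, small MAF and BACH1 genes (top row) and of the 7 related lists, with the number of measured genes in brackets, the median as a black bar and dotted lines at 2-fold; genes under the floor on 1 array are drawn at their bound. The top row lies to the right of 0 with a median of 1.34, or 1.71 over its 5 genes above the floor on both arrays. FOS entered that row through the knockout array alone, which fixes its side. Each list has genes on both sides. Of the AP-1 targets above the floor on both arrays, 11 were higher and 1 was lower. Another 4 entered through the knockout array alone, which fixes their side. Among all genes above the floor on both arrays, 50.1% were higher.

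The genes next to the 6 measured ones were then set beside them, as the nearest measured gene on either side in the order of the chicken reference, a comparison chosen after the data had been seen. Of these 12 neighbours, 1 was at least 2-fold higher and 2 were at least 2-fold lower, beside 3.87% and 6.62% of all measured genes. MAP3K7CL, the neighbour of BACH1, went from 40.0 to 275, at least 4.72-fold higher, with no protein-coding gene annotated between them, while GRIK1 on the other side stayed near the floor (48.9 and 59.5). BATF, which lies beside FOS with 1 protein-coding gene between them, was 3.46-fold lower as given above, and TMED10, on the other side of FOS, had a log2 ratio of 0.02. FGGY, beside JUN with 1 gene between, was 3.41-fold lower, and HOOK1 on the other side was at 0.10. Around MAFF, TMEM184B and PLA2G6 had log2 ratios of 0.42 and -0.26, and around MAFK, GAA2 and TMEM184A had -0.58 and -0.28. JUN, FOS (a bound), MAFF and MAFK had higher ratios than both of their measured neighbours. At most 5.81% of all measured genes had a higher ratio than any of these, so most genes would stand lower beside them. BACH1 lay between its neighbours, and MAFG was lower than both of its own, PCYT2 at 0.45 and NME1 at 0.59.

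**Figure D5:**
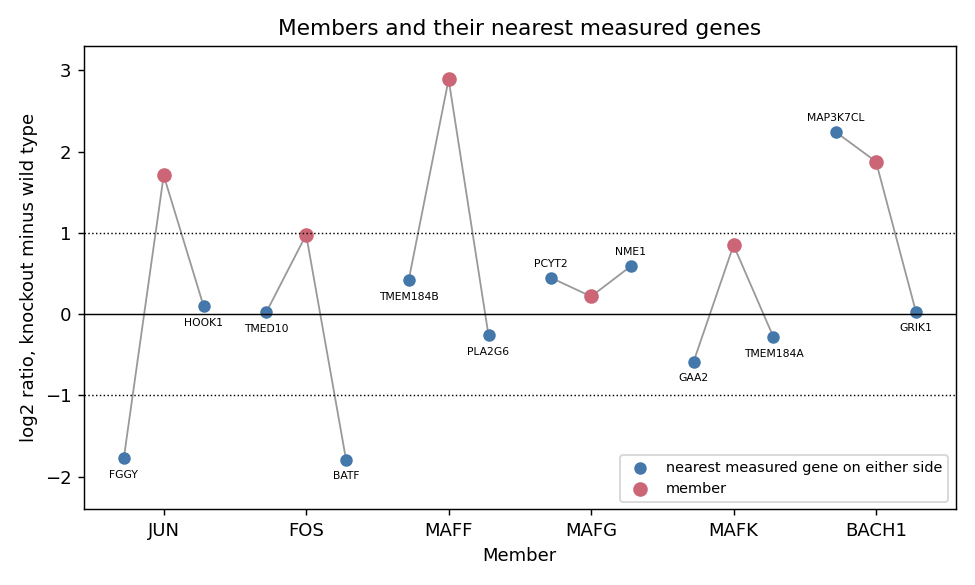
Log2 ratio (knockout minus wild type) of the 6 measured genes (red) and of the nearest measured gene on either side of each (blue, named), joined by lines in chromosomal order, with dotted lines at 2-fold. JUN, FOS (a bound), MAFF and MAFK stand above both neighbours, as they do above most measured genes. BACH1 at 1.88 is next to MAP3K7CL at a bound of 2.24.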

How the data were processed

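The study put RNA of 1 wild-type and 1 H2A.Z double knockout DT40 culture on Affymetrix chicken arrays with 1 colour (biotin label). The deposited table holds a linear intensity for each probe set, and the submitters' processing notes name MAS5 for it. Its version, scaling target and detection calls are not used here. MAS5 scales each array by 1 factor, so trends with brightness stay.

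Of 38535 probe sets, 96 control probe sets were left out, 27168 named 1 gene, 177 several (not used) and 11094 none. Names came from the platform annotation. Chromosomes and gene order came from RefSeq GRCg7b through the gene identifier (8 of 8 genes matched). The floor was the 50th percentile of non-control signals of both arrays, and each gene was given its brightest probe set by mean log2 signal. Groups came from the genotype labels. Probe error was the SD of the difference in log2 ratio between a gene's 2 brightest probe sets above the floor, divided by the square root of 2. No test was made.

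The member ratios and counts, the medians of members and lists, and the counts over all genes were recomputed under 8 alternatives. For scaling these were quantile normalization, median centring and loess (span 0.3). Median centring made the median log2 signals of the arrays equal over probe sets above the floor on both, and did not centre the gene ratios. For low signals they were a floor at the 75th or the 25th percentile and, in place of a floor, a pseudocount of the same size. For probe sets they were the median over those measured, and only those not shared between transcripts (shared ones end in _s_at, _x_at or _a_at). The named genes were all members, both H2A.Z genes and the 4 largest absolute ratios in each of 7 lists, with list genes matched by symbol; further list genes and markers were picked with their values known. The members and lists were chosen with earlier results of these data known. The computation was tested on simulated data, with ratios planted only in bright genes above the floor on both arrays. Ratios of dim genes, or of genes that cross the floor as FOS did, were not part of that test. Python 3.11.15, pandas 2.3.3, numpy 2.4.6 and statsmodels 0.14.6 were used.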

Additional observations from a re-analysis of the deposited data

How the results depend on the processing

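No paired analysis was possible because there was 1 array per group. No gene ratio and no list median changed sign in any setting. The call of reversed was made for 0 of 142 values, but counts and small ratios could not receive it. Of the 142, 21 counts or medians and 4 gene ratios moved by more than the set margin. The number of AP-1 and small MAF genes at least 2-fold higher was 3 as deposited, 5 under median centring and between 2 and 4 in the other settings, and 0 were at least 2-fold lower in any. A floor at the 25th percentile gave a median log2 ratio of 1.67, with 7 genes measured (BATF3 joined at -0.16), and the median was 0.91 with all measured probe sets of each gene, which lowered BACH1. At the 75th percentile, where FOS and MAFG were not measured, BACH1 was at 1.27 and MAFF at 2.17, since their wild-type signals lay under it. Over all genes, the floor at the 25th percentile left 1172 at least 2-fold higher and 1222 lower, and that at the 75th left 130 and 292, where 12063 and 5860 genes were measured.

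Of the list medians over measured genes, median centring moved MAP kinases to 0.36, promoter-binding factors to 0.57, turnover genes to -0.018, NRF2 and BACH1 targets to 0.28, and BACH2 and BATF partners to 0.24, by about the shift of all genes. Without shared probe sets MAP kinases were at 0.11, promoter-binding factors at 0.24, other AP-1 proteins at 0.45 and AP-1 targets at 0.49. With all measured probe sets MAP kinases were at 0.12 and AP-1 targets at 0.47. A floor at the 75th percentile put AP-1 targets at 0.49, and at the 25th it put other AP-1 proteins at 0.56; the pseudocount put promoter-binding factors at 0.30. The causes of these shifts were not tested. For other AP-1 proteins the median was 0.14 over 6 measured genes but -0.25 over the 4 above the floor on both arrays. Signal close to the floor limits FOS, MAFG and 4 of the BACH1 probe sets.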
